A study of Mus musculus with 6 samples.

Results

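The genes described here are 37 integrin, laminin and basement membrane genes, out of 27179 genes counted in fetal mouse lung epithelium. They were chosen by symbol: 15 integrin chains, 10 laminin chains and 12 further genes for nidogens, heparan sulfate proteoglycans, the Fraser complex, nephronectin, dystroglycan, hemidesmosome linkers and the tetraspanin Cd151. Collagens were kept out of the set and are given with the neighbouring pathway genes. Each of the 37 was found in the count table, and 37 of 37 passed the filter on low counts.

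RNA was sequenced from EpCAM-positive cells sorted from lungs at E16.5 (an embryonic day of fetal life). Control embryos were Shh-Cre;Grhl2 f/+ (3 samples, replicates 1 and 3 male and replicate 7 female). Grhl2-deficient embryos, written Grhl2_cKO, were Shh-Cre;Grhl2 f/- (3 samples, replicate 1 female and replicates 5 and 10 male). Both groups therefore carry Shh-Cre, a recombinase driven by a Shh allele that is active in lung epithelium, and a floxed Grhl2 allele, with the second allele intact in controls and a minus allele in Grhl2_cKO, so the controls keep 1 intact Grhl2 allele in cells where Cre acts. Grhl2 is a Grainyhead-like transcription factor of epithelial cells. It is not stated in the labels that a sample is a single embryo. A p-value here therefore speaks only of how these samples scatter, which may in part be technical. Bulk counts cannot tell fewer cells of a type from less RNA per cell.

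A basement membrane is the thin sheet of matrix on which an epithelium sits. Laminins are trimers of an alpha, a beta and a gamma chain that polymerise into this sheet. Nidogens and the proteoglycan perlecan tie the laminin network to type IV collagen, and agrin is a further proteoglycan of the sheet. Integrins (alpha and beta heterodimers) and dystroglycan hold the cell to the sheet. In the fetal lung this sheet lies between the branching tubules and the surrounding mesenchyme, where the Fraser complex and nephronectin are also placed.

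Library totals ran from 13472216 to 17228762 counts, and the 37 genes together took 1.39% to 1.54% of the counts in controls and 1.45% to 1.61% in Grhl2_cKO. Grhl2 mRNA in Grhl2_cKO was at 74.4% of control (edgeR adjusted p = 0.0026), and Epcam, the sorting antigen, was at 67.6% (edgeR adjusted p = 0.00412). Of 7 lung epithelium markers, 4 had fitted differences below 0 and 1, Epcam, was called. Sftpc, the surfactant protein C gene, took most of their summed level and stood at 12781 to 14297 CPM (counts relative to the TMM-scaled library total) in controls and 12584 to 15436 CPM in Grhl2_cKO. Nkx2-1, the lung epithelial transcription factor gene, stood at 597 to 784 and 622 to 805 CPM. Both markers were present in each library and overlapped between genotypes. The epithelial genes Cdh1, Krt8 and Krt18 were at 83.0%, 71.8% and 77.2% of control and were not called, with no overlap between genotypes for Cdh1 and Krt8. Sftpb, the surfactant protein B gene, lay the other way at 120.6% of control and was not called. Its groups did not overlap either, with 1787 to 1899 CPM in controls and 2075 to 2427 CPM in Grhl2_cKO.

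No member passed the test between genotypes, while laminin, integrin and Fraser complex genes gave small differences of both signs. Of the 37 genes, 0 were higher and 0 were lower in Grhl2_cKO at an adjusted p under 0.05 (edgeR quasi-likelihood test, Benjamini-Hochberg over 14842 genes), where 3.62% of all genes tested passed, 1.23% higher and 2.39% lower. At an unadjusted p under 0.05 the same edgeR test took 10 of the 37 (27.0%, 4 of them higher), against 13.3% of all genes. DESeq2 called 4 of them, Lama1 higher and Itga9, Fras1 and Plec lower, against a background of 4.51%. The limma-voom fit called Fras1 alone (background 3.66%), and the robust edgeR fit called Fras1 and Plec (background 4.01%). The libraries of the genotypes did not overlap for 9 of the 37 (24.3%), against 18.1% of all genes: Itga3, Itgb5, Lama1 and Dst were higher, and Itga2, Itga9, Itgb6, Fras1 and Plec lower. The members were chosen with earlier results of these data known, so these shares describe the chosen genes only. Fitted differences lay above 0 for 23 genes and below 0 for 14, with a median log2 fold change of 0.05 and a median absolute log2 fold change of 0.135, beside 0.0866 over all genes tested. Lamb3, at -0.01, was above 0 with upper-quartile scaling (0.0037).

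The 14 genes at 50 CPM per kilobase or more in controls had log2 fold changes from -0.05 to 0.26, and each of their 95% intervals lay within 1.5-fold of control in both directions, with outer bounds of 0.862-fold and 1.40-fold. Of all 37 genes, lower ones included, 27 had intervals within 1.5-fold, and the standard error of the log2 fold change ran from 0.06 to 0.43. The widest belonged to Lamc3, which held 0.838 to 2.69 CPM in controls.

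**Figure D1:**
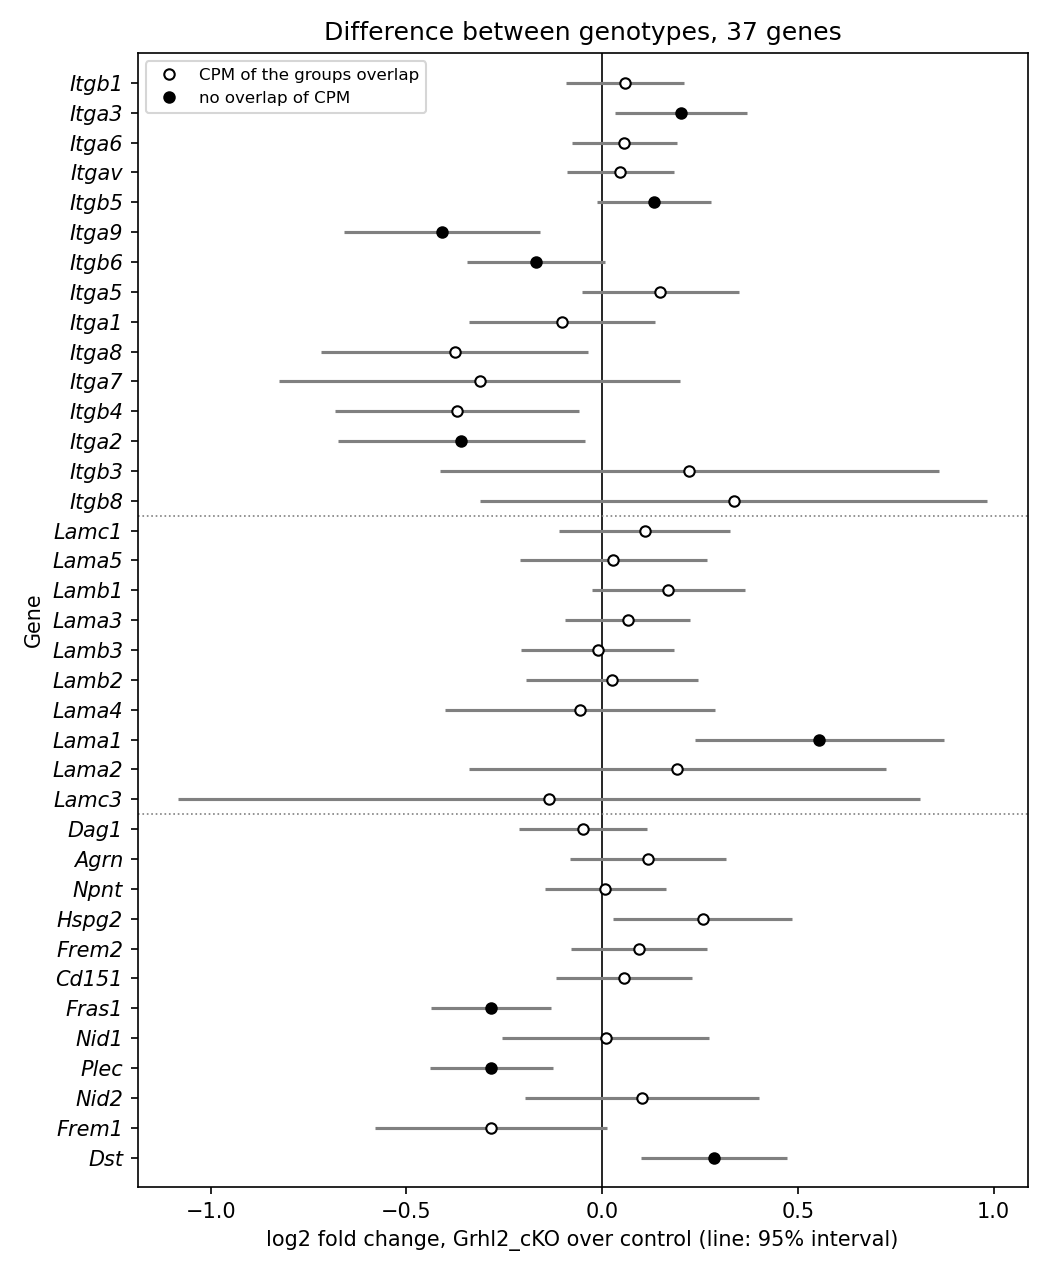
Log2 fold change of each of the 37 genes, Grhl2_cKO over control (x axis; points), with its 95% interval from the edgeR fit (lines); integrins are at the top, laminins in the middle and the other genes at the bottom, each block in order of control level per kilobase. Filled points mark the 9 genes whose libraries do not overlap between genotypes, of which Lama1 at 0.55 is farthest right and Itga9 at -0.41 farthest left.

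In control epithelium the members spanned a wide range of levels per length. Counts were divided by the length of each gene's counted sequence, which sums over isoforms and so understates long genes with several start sites such as Dst and Plec. On this scale Lamc1, the gamma-1 chain shared by most laminins, was highest with 318 ± 10.7 CPM per kilobase (SD, n = 3). Itgb1, the common beta chain, followed with 208 ± 6.37, and Lama5, the alpha-5 chain of epithelial basement membranes, with 201 ± 19.2 CPM per kilobase. The ranges of Itgb1 and Lama5 overlapped, as did those of Lamb1 (161), Dag1 (154) and Agrn (152 CPM per kilobase), and Lamc1 stood apart from the next gene. Lama3 (103), Npnt (93.5), Lamb3 (92.5), Hspg2 (85.1), Itga3 (69.1), Frem2 (65.1), Itga6 (64.1) and Lamb2 (63.9 CPM per kilobase) completed the upper group of 14. A middle group of 12 genes lay between 5 and 50 CPM per kilobase, from Cd151 (39.3) and Fras1 (32.4) down to Frem1 (5.10). The 11 genes under 5 CPM per kilobase were Itga1, Itga8, Itga7, Lama1, Dst, Itgb4, Itga2, Lama2, Itgb3, Itgb8 and Lamc3. Of 36 neighbouring pairs in this order, 23 had overlapping ranges over the 3 controls.

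**Figure D2:**
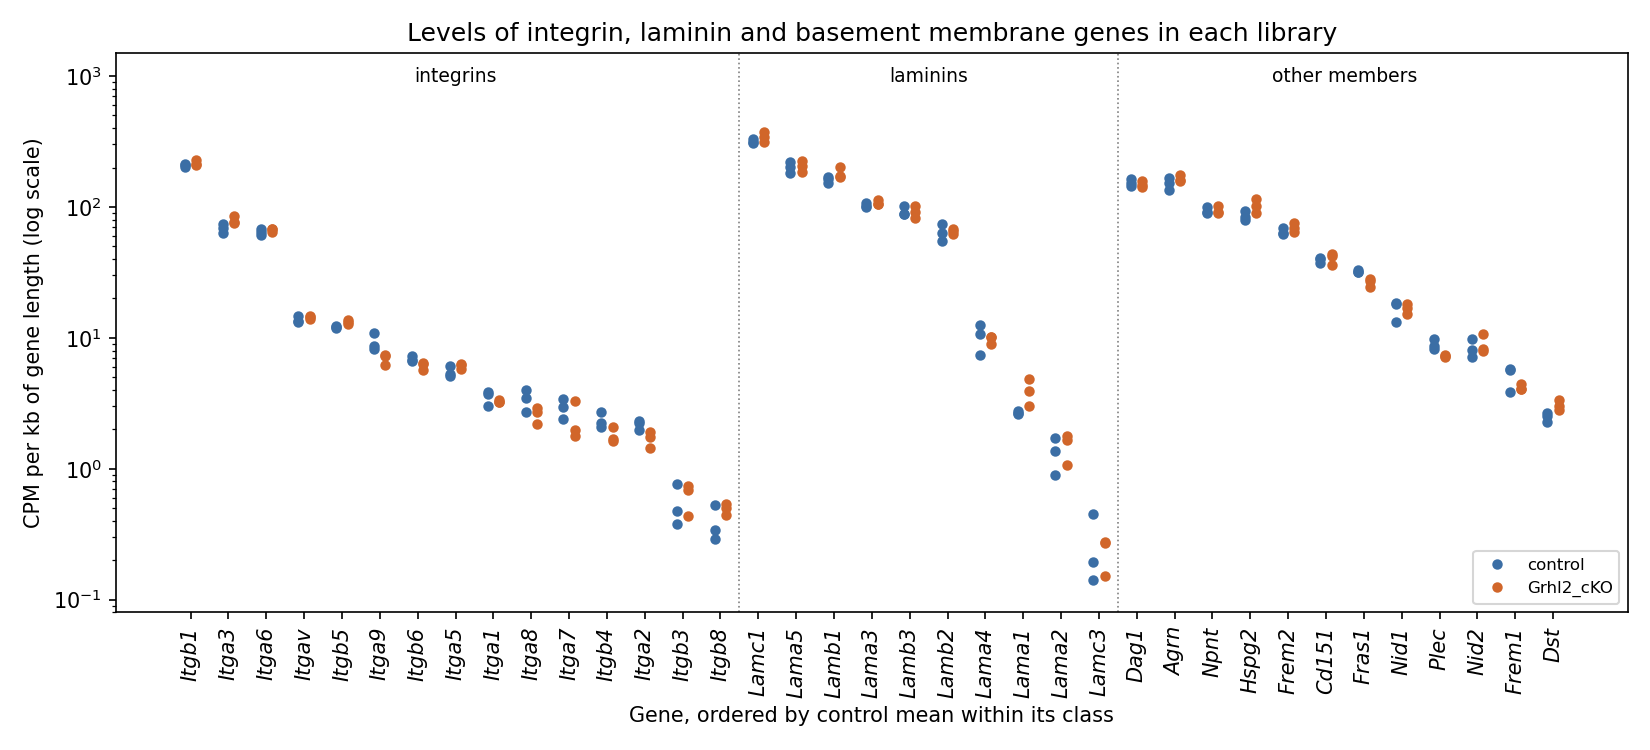
Level per length of the 37 genes (CPM per kilobase, log axis) in the 3 control and 3 Grhl2_cKO libraries, 1 point per library. Integrins come first, then laminins, then the other genes, each block ordered by control mean. Lamc1, Itgb1 and Lama5 are highest and Lamc3 lowest, and the points of both genotypes lie on each other for most genes.

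The laminin-binding integrins made up most of the integrin alpha signal. Itga3 and Itga6, which pair with Itgb1 (and Itga6 also with Itgb4) as receptors for laminin, held 39.7% ± 2.26 and 36.96% ± 3.01 (SD, n = 3) of the summed per-length level of the 9 alpha chains in controls. In Grhl2_cKO these shares were 43.3% ± 1.35 and 36.4% ± 1.16. Itgb1 held 90.4% ± 0.305 of the 6 beta chains in controls and 90.7% ± 0.669 in Grhl2_cKO.

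Below, CPM values are given in the order of control replicates 1, 3 and 7 and then Grhl2_cKO replicates 1, 5 and 10. Itga3 stood at 361, 308 and 337 CPM in controls and at 368, 373 and 416 CPM in Grhl2_cKO, giving 0.20 ± 0.08 on the log2 scale (SE; edgeR adjusted p = 0.246). The lowest Grhl2_cKO library lay just above the highest control. Itga6 stood at 255, 284 and 270.4 CPM in controls and at 270.5, 287 and 284 CPM in Grhl2_cKO (log2 fold change 0.06 ± 0.06), and the groups overlapped. Itgb1 (chromosome 8, 128685654 to 128733579, mm10) stood at 879, 898 and 846 CPM in controls and at 879, 899 and 953 CPM in Grhl2_cKO, a log2 fold change of 0.06 ± 0.07 with a 95% interval of 0.938-fold to 1.16-fold. Itga7, the remaining laminin-binding alpha chain, had 11.8 ± 2.10 CPM in controls and 9.44 ± 3.40 CPM in Grhl2_cKO.

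Itgb4, whose long tail binds hemidesmosome linkers, stood at 16.7, 12.8 and 13.8 CPM in controls and at 12.9, 10.0 and 10.5 CPM in Grhl2_cKO, giving -0.37 ± 0.14 on the log2 scale (edgeR adjusted p = 0.253). The highest Grhl2_cKO library overlapped the lowest control by a small margin. Its level per length was 1.01% ± 0.143 of the beta chains in controls and 0.754% ± 0.121 in Grhl2_cKO.

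Itga9, which pairs with Itgb1 and binds tenascin C and other matrix ligands, had the most negative difference of the 37. It stood at 77.6, 61.6 and 57.8 CPM in controls and at 51.9, 43.9 and 52.4 CPM in Grhl2_cKO, so each Grhl2_cKO library lay below each control. The log2 fold change was -0.41 ± 0.11, 75.3% of control, with an edgeR adjusted p of 0.0901 that ranged from 0.0173 (DESeq2) to 0.281 over the alternatives. Itga2, a collagen-binding alpha chain, stood at 8.36, 9.79 and 9.35 CPM in controls and at 6.13, 8.02 and 7.34 CPM in Grhl2_cKO (log2 fold change -0.36 ± 0.14, edgeR adjusted p = 0.282). Its groups did not overlap either, while those of Itga1, the other collagen-binding chain, did (21.0 ± 2.72 CPM in controls, 19.6 ± 0.367 CPM in Grhl2_cKO).

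Integrins that bind the RGD sequence of matrix proteins, some of which activate latent TGF-beta, gave small differences of both signs. Itgb6, the epithelial partner of Itgav, stood at 34.8, 33.8 and 37.4 CPM in controls and at 32.9, 29.2 and 32.2 CPM in Grhl2_cKO (log2 fold change -0.17 ± 0.08, edgeR adjusted p = 0.407). Itgb5, a further partner of Itgav, stood at 39.4, 40.4 and 39.1 CPM in controls and at 45.3, 42.1 and 43.0 CPM in Grhl2_cKO (0.13 ± 0.07, edgeR adjusted p = 0.449). Neither gene overlapped between genotypes, and they lay in opposite directions. Itgav itself, Itga5 and Itga8 had log2 fold changes of 0.05, 0.15 and -0.38 with overlapping groups. Itgb3 and Itgb8 were counted at 2.19 to 4.41 CPM and 0.903 to 1.67 CPM, and their intervals were correspondingly wide.

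The promoters of the members were read for the binding motif of Grainyhead-like factors. RefSeq windows of build GRCm38.p6, from 250 bases before to 50 bases after each listed start site (a gene can have several), were found for 25 of the 37 genes. The palindrome AACCGGTT was in 0 of their 34 windows and in 0.146% of all 32851 windows. The looser form AACNNGTT, which reads the same way on both strands and includes the palindrome, was in 3 of the 34 windows, those of Itgb6, Frem2 and Cd151, and in 4.204% of all windows. The stretches around these 3 matches are printed 5′ to 3′ on the gene's strand, with the match in capitals, because they were the matches found among the members.
Itgb6: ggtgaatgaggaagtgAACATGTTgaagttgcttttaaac
Frem2: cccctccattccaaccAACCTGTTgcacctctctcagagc
Cd151: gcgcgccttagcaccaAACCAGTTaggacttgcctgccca
They lie at chr2:60673696-60673735 (minus strand), chr3:53657522-53657561 (minus strand) and chr7:141467287-141467326 (plus strand), with the match beginning 26, 190 and 59 bases before the start site of its window. For Cd151 that site is the outer start of the annotated gene. For Frem2 it lies 1.24 kb inside the gene, and for Itgb6 it is an internal start 48.9 kb inside. The 3 genes had log2 fold changes of -0.17, 0.09 and 0.06 in Grhl2_cKO. A match of letters is not a measured binding site.

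Laminin alpha chains were dominated by Lama5 and Lama3 in both genotypes. Lama5 held 63.0% ± 1.54 of the summed per-length level of the 5 alpha chains in controls and 62.4% ± 1.39 in Grhl2_cKO, and Lama3, the alpha chain of laminin-332, held 32.5% ± 1.28 and 33.0% ± 1.16. Lama5 (chromosome 2, 180176373 to 180225904) stood at 2503, 2066 and 2283 CPM in controls and at 2110.4, 2340.5 and 2539.6 CPM in Grhl2_cKO (log2 fold change 0.03 ± 0.11). Lama3 stood at 1112, 1035 and 1054 CPM in controls and at 1083, 1092 and 1175 CPM in Grhl2_cKO (0.07 ± 0.07). Both overlapped between genotypes, and the 95% interval of Lama5 ran from 0.864-fold to 1.20-fold.

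Lama1, the alpha chain of laminin-111, an early embryonic laminin, had the most positive difference of the 37. Lama1 (chromosome 17, 67697127 to 67822645) stood at 24.9, 25.3 and 26.4 CPM in controls and at 28.8, 37.7 and 46.1 CPM in Grhl2_cKO. The controls lay close together and each Grhl2_cKO library was above them, with replicate 10 highest and replicate 1 nearest to the controls. The log2 fold change was 0.55 ± 0.14, or 1.47-fold with a 95% interval of 1.18-fold to 1.83-fold, and the edgeR adjusted p was 0.0685. Over the alternatives this p ranged from 0.00396 (DESeq2) to 0.202. Lama1 passed the edgeR threshold when Grhl2_cKO replicate 1, the only female of that group, was left out (log2 fold change 0.71, edgeR adjusted p = 0.00705). The difference was 0.38 without replicate 10. Lama1 held 0.848% ± 0.0758 of the alpha chain level per length in controls and 1.19% ± 0.191 in Grhl2_cKO.

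The remaining alpha chains, Lama2 and Lama4, are best known from muscle, nerve and vessel walls. Lama4 stood at 75.8, 64.2 and 44.6 CPM in controls and at 61.7, 54.5 and 61.2 CPM in Grhl2_cKO, and Lama2 at 16.6, 13.3 and 8.70 and at 17.4, 10.3 and 16.2 CPM. For both genes the controls spanned more than the difference between genotypes.

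Among the beta and gamma chains, Lamb1 stood at 973, 944 and 879 CPM in controls and at 971, 1001 and 1172 CPM in Grhl2_cKO (log2 fold change 0.17 ± 0.09, edgeR adjusted p = 0.487). Lamb3, the beta chain of laminin-332, stood at 409, 356 and 360.2 CPM in controls and at 373, 332 and 412 CPM in Grhl2_cKO (-0.01 ± 0.09). Lamc1 (chromosome 1, 153218922 to 153332786) stood at 2518, 2363 and 2399 CPM in controls and at 2394, 2594 and 2862 CPM in Grhl2_cKO (0.11 ± 0.10). In each of these the groups overlapped. Lamb1, Lamb3 and Lamb2 held 50.8%, 29.1% and 20.1% of the beta chain level per length in controls and 53.6%, 27.1% and 19.3% in Grhl2_cKO.

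Nidogens and proteoglycans gave 4 fitted differences above 0, none past the threshold. Hspg2, which encodes perlecan, stood at 1311, 1129.7 and 1179 CPM in controls and at 1268, 1438 and 1617 CPM in Grhl2_cKO (log2 fold change 0.26 ± 0.10, edgeR adjusted p = 0.289). Agrn, which encodes agrin, stood at 1227, 1002 and 1129 CPM in controls and at 1172, 1184 and 1288 CPM in Grhl2_cKO (0.12 ± 0.09). In both genes Grhl2_cKO replicate 10 was highest and a control library lay within the Grhl2_cKO range. Nid1 had 100.1 ± 17.8 CPM in controls and 100.8 ± 8.53 CPM in Grhl2_cKO, and Nid2 had 40.6 ± 6.50 and 43.5 ± 7.21 CPM. Their log2 fold changes were 0.009 and 0.10, and they changed sign in 2 and 1 of 16 alternatives.

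Grhl2_cKO replicate 10 was the highest of the 6 libraries for 12 of the 37 genes, Lama1, Lamb1, Lamc1 and Hspg2 among them, and control replicate 1 was the highest for 14. The other 4 libraries were each highest for 1 to 5 genes.

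The Fraser complex is a sheet of Fras1, Frem1 and Frem2 proteins beneath embryonic epithelia, and the fitted differences of its genes had both signs. Fras1 (chromosome 5, 96373777 to 96784733) stood at 526, 508 and 507 CPM in controls and at 386, 450.0 and 429.5 CPM in Grhl2_cKO. The controls lay close together and each Grhl2_cKO library was lower. The log2 fold change was -0.28 ± 0.07, 82.1% of control with a 95% interval of 0.739-fold to 0.913-fold, and the edgeR adjusted p was 0.0531. Over 16 alternatives that p ranged from 0.00496 to 0.153, and it was under 0.05 in 5 of them, among them DESeq2 (0.00496) and limma-voom (0.0426). Frem2 stood at 855, 787 and 768 CPM in controls and at 797, 853 and 924 CPM in Grhl2_cKO (log2 fold change 0.09 ± 0.08), with overlapping groups.

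Frem1 stood at 54.1, 55.5 and 37.1 CPM in controls and at 39.1, 39.0 and 42.3 CPM in Grhl2_cKO (log2 fold change -0.28 ± 0.13, edgeR adjusted p = 0.408). Control replicate 7, the only female control, was the lowest of the 6, and without it the edgeR adjusted p was 0.0183. Npnt, the nephronectin gene, stood at 370.3, 333 and 343 CPM in controls and at 379, 334 and 339.6 CPM in Grhl2_cKO (0.01 ± 0.07, 95% interval 0.904-fold to 1.12-fold). Dag1, the dystroglycan gene, stood at 727, 636 and 675 CPM in controls and at 649.6, 623 and 697 CPM in Grhl2_cKO (-0.05 ± 0.07). Neither Npnt nor Dag1 separated the genotypes.

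The hemidesmosome linkers Plec and Dst, giant plakins that join integrins to keratin filaments, lay in opposite directions. Plec (plectin; chromosome 15, 76170974 to 76231378) stood at 171, 143 and 151 CPM in controls and at 124, 130.2 and 128 CPM in Grhl2_cKO. Its log2 fold change was -0.28 ± 0.07, 82.2% of control, with an edgeR adjusted p of 0.0587 and a range of 0.0243 (DESeq2) to 0.171 over the alternatives. Plec lies 38.8 Mb from Grhl2 on the same chromosome, and whether linked sequence differs between the genotypes was not tested. Dst (dystonin; chromosome 1, 33907888 to 34308662) stood at 62.3, 58.7 and 53.3 CPM in controls and at 77.7, 69.6 and 65.1 CPM in Grhl2_cKO (log2 fold change 0.29 ± 0.08, edgeR adjusted p = 0.115). Neither gene overlapped between genotypes. The counts sum over the epithelial, neural and muscle isoforms of both genes. Cd151, the tetraspanin that associates with laminin-binding integrins, had 79.2 ± 3.24 CPM in controls and 82.3 ± 8.25 CPM in Grhl2_cKO.

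**Figure D3:**
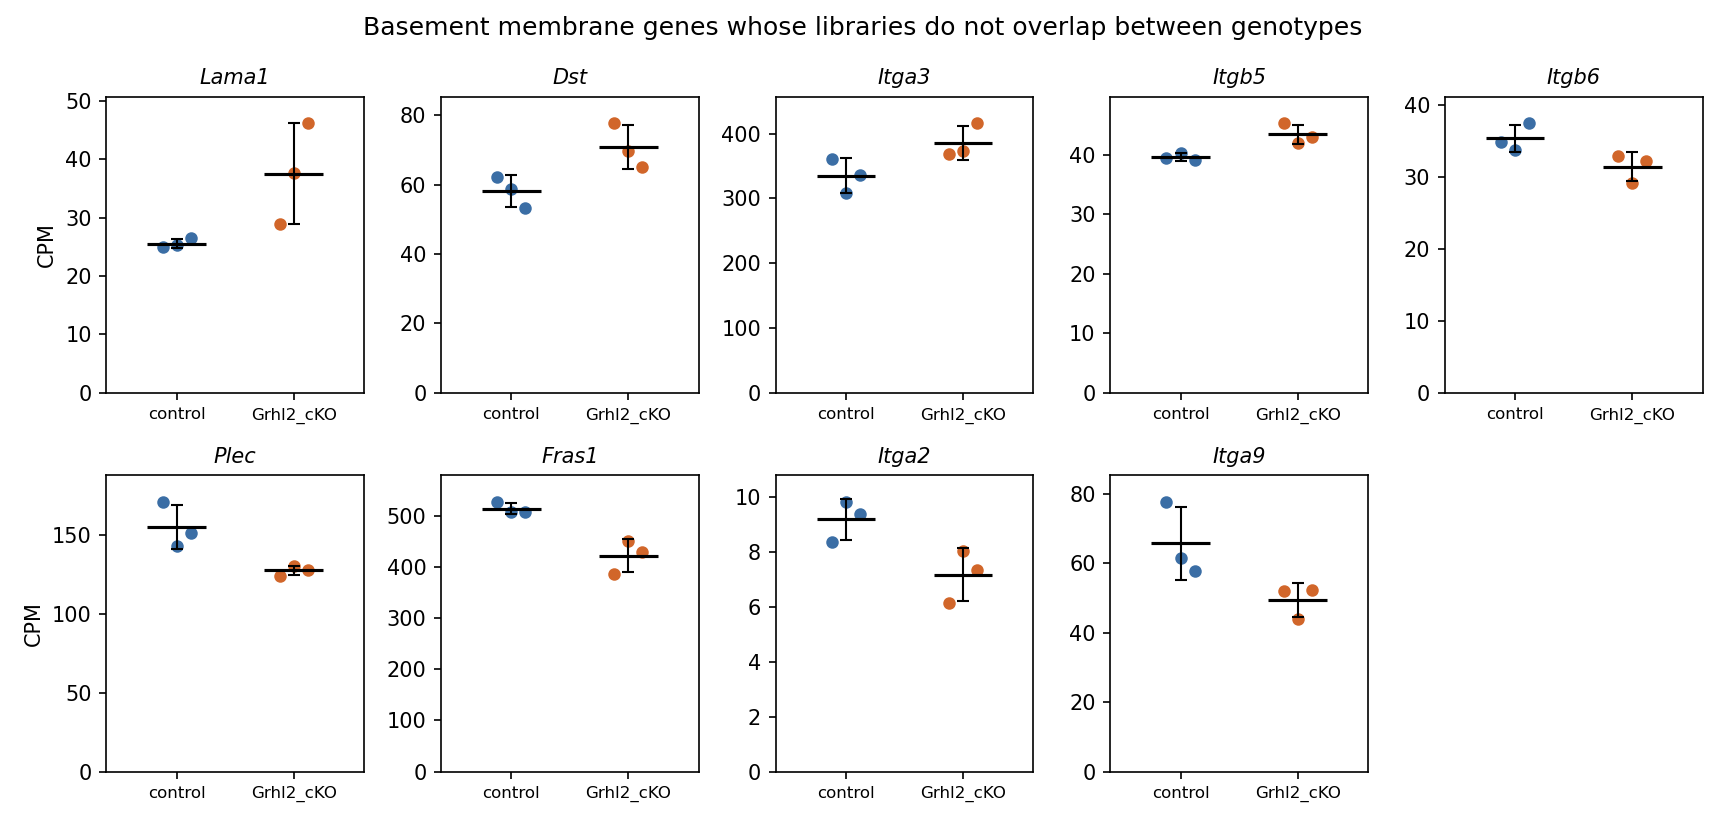
CPM of the 9 genes whose libraries do not overlap between genotypes, 1 panel per gene with its own axis from 0, 1 point per library, with the mean (line) and SD (error bar) of each group of 3. The 3 Lama1 controls lie within 24.9 to 26.4 CPM while the Grhl2_cKO libraries spread from 28.8 to 46.1 CPM, and the Fras1 and Plec points of Grhl2_cKO lie below those of controls.

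Ratios of related chains within a library do not depend on the scaling of libraries, and 8 pairs were compared by an exact two-sided permutation test, whose smallest possible p with 3 against 3 samples is 0.1. The ratio of Lama5 to Lama1 per length was 83.9, 68.2 and 72.2 in controls and 61.2, 51.9 and 46.0 in Grhl2_cKO, a log2 difference of -0.50 (exact permutation p = 0.1, 0.4 after Benjamini-Hochberg over the 8 pairs). The ratio of Frem2 to Fras1 per length was 2.09, 1.99 and 1.94 in controls and 2.65, 2.43 and 2.76 in Grhl2_cKO, a log2 difference of 0.38 with the same exact permutation p of 0.1 and adjusted value of 0.4. These were the 2 pairs whose groups did not overlap, and this design cannot bring either under 0.05. Log2 differences of the other pairs were -0.43 for Itgb4 over Itgb1, -0.14 for Itga6 over Itga3, 0.04 for Lama3 over Lama5, 0.13 for Lamb1 over Lamb2, 0.57 for Itgb8 over Itgb6 and 0.08 for Nid2 over Nid1, with exact permutation p from 0.2 to 0.6.

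**Figure D4:**
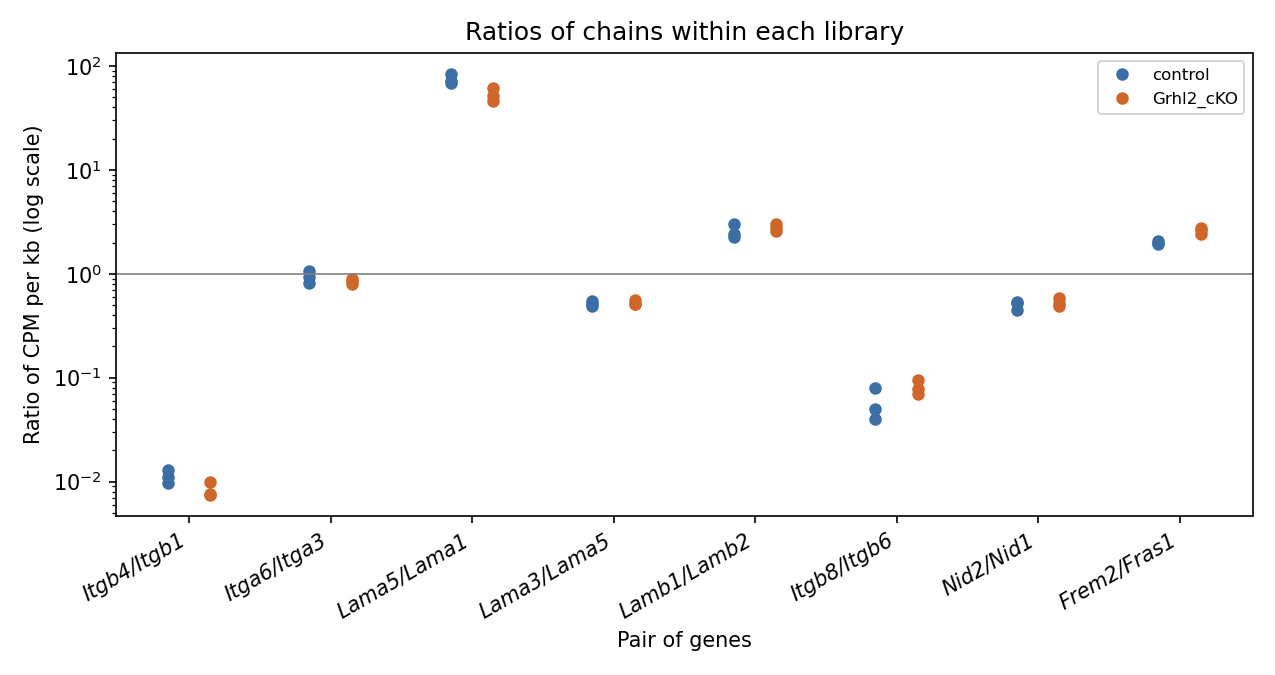
Ratio of the per-length levels of 8 pairs of related genes (y axis, log scale) in each of the 3 control and 3 Grhl2_cKO libraries, 1 point per library. Lama5 over Lama1 is lower and Frem2 over Fras1 higher in each Grhl2_cKO library than in each control, and the groups of the other 6 pairs overlap.

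Genes that work beside the members were read from 6 lists, and of 88 tested 9 passed the threshold (10.2%, beside 3.62% of all genes), 5 higher and 4 lower. The lists were chosen with earlier results of these data known, so these percentages describe the chosen genes and test nothing about such genes in general. Fermt1 encodes kindlin-1, an epithelial adaptor that binds integrin beta tails and aids their activation. Fermt1 (chromosome 2, 132904177 to 132946036) stood at 7.91, 10.6 and 12.96 CPM in controls and at 3.78, 3.59 and 3.96 CPM in Grhl2_cKO, so it fell to 35.9% of control (log2 fold change -1.48 ± 0.19, edgeR adjusted p = 0.00232). It was the 1 gene called among 21 integrin adaptors and focal adhesion kinases, whose median log2 fold change was 0.03. Fermt2, the broadly expressed kindlin-2 gene, stood at 218, 197 and 187 CPM in controls and at 201, 198 and 223 CPM in Grhl2_cKO (0.05 ± 0.07), with overlapping groups.

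Of 11 basement membrane collagen and crosslinker genes tested, 2 rose and 0 fell. Loxl2, a lysyl oxidase that crosslinks type IV collagen, stood at 37.03, 36.4 and 35.5 CPM in controls and at 62.7, 57.9 and 68.8 CPM in Grhl2_cKO, 1.74-fold higher (log2 fold change 0.80 ± 0.08, edgeR adjusted p = 0.000422). Col4a3, a collagen IV chain, stood at 58.5, 49.6 and 58.3 CPM in controls and at 77.6, 82.8 and 74.5 CPM in Grhl2_cKO, 1.41-fold higher (0.50 ± 0.08, edgeR adjusted p = 0.00715). Both sets of libraries were well apart. The main chains Col4a1 and Col4a2 had log2 fold changes of 0.11 and 0.13 with overlapping groups.

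Proteases, their inhibitors and enzymes that act on heparan sulfate gave 2 higher and 1 lower of 13 tested. Sulf2, which trims sulfate groups from heparan sulfate chains such as those of perlecan and agrin, stood at 43.5, 49.9 and 42.2 CPM in controls and at 64.3, 64.7 and 76.4 CPM in Grhl2_cKO, 1.52-fold higher (log2 fold change 0.60 ± 0.09, edgeR adjusted p = 0.00573). Timp2, a metalloprotease inhibitor, was 1.26-fold higher (edgeR adjusted p = 0.0407), with 132 to 156 CPM in controls and 165 to 189 CPM in Grhl2_cKO. Mmp15, a membrane-bound metalloprotease, fell to 78.8% of control (edgeR adjusted p = 0.0173), with 135 to 146 CPM in controls and 104 to 119 CPM in Grhl2_cKO. The edgeR adjusted p of Timp2 was over 0.05 in fits that lacked control 3 (0.170), control 7 (0.128), Grhl2_cKO 1 (0.131) or Grhl2_cKO 10 (0.135), and with sex as a covariate (0.0660). That of Mmp15 was over 0.05 in fits that lacked control 3 (0.0716), control 7 (0.0634), Grhl2_cKO 1 (0.0575) or Grhl2_cKO 5 (0.0716).

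In each of the other 3 lists 1 gene passed. Tnc encodes tenascin C, a ligand of the integrin that Itga9 forms. It was the 1 higher gene of 13 matrix ligands and latent TGF-beta partners of integrins. Tnc stood at 52.3, 45.1 and 38.4 CPM in controls and at 71.4, 59.4 and 63.7 CPM in Grhl2_cKO, 1.43-fold higher (edgeR adjusted p = 0.0306). Sntb1, a syntrophin of the dystrophin complex that dystroglycan anchors, was the 1 gene called of 19 and fell to 76.4% of control, from 33.9 to 36.8 CPM in controls to 26.0 to 27.6 CPM in Grhl2_cKO (edgeR adjusted p = 0.0184). Sntb1 lies 18.3 Mb from Grhl2 on chromosome 15. Tspan1, a tetraspanin, was the 1 gene called of 11 tetraspanins and lateral partners and fell to 43.2% of control, with 22.0 to 24.1 CPM in controls and 7.70 to 13.3 CPM in Grhl2_cKO (edgeR adjusted p = 0.00412). The call of Tnc was lost in fits that lacked control 3 (edgeR adjusted p = 0.111), control 7 (0.0727), Grhl2_cKO 1 (0.0991) or Grhl2_cKO 10 (0.0887). The call of Sntb1 was lost in fits that lacked control 1 (edgeR adjusted p = 0.0511), control 3 (0.0663), Grhl2_cKO 5 (0.0824) or Grhl2_cKO 10 (0.0664). Fermt1, Col4a3, Loxl2, Sulf2 and Tspan1 passed in all 16 alternatives.

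**Figure D5:**
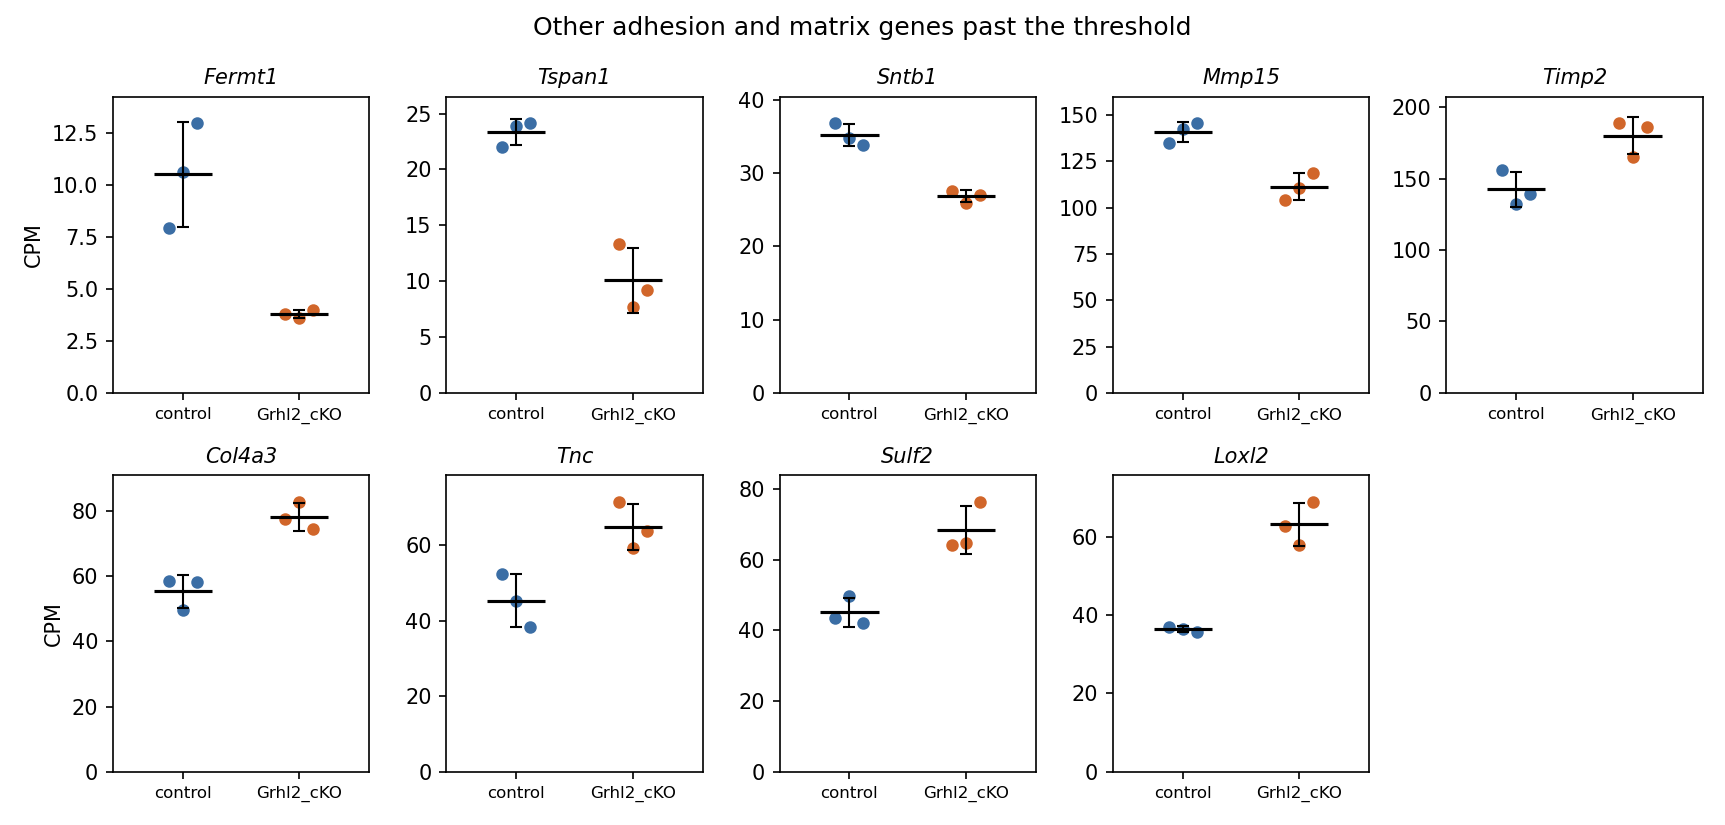
CPM of the 9 adhesion and matrix genes outside the 37 that passed the edgeR threshold, 1 panel per gene with its own axis from 0, 1 point per library, with the mean (line) and SD (error bar) of each group of 3. Fermt1, Tspan1, Sntb1 and Mmp15 are lower and Timp2, Col4a3, Tnc, Sulf2 and Loxl2 higher in each Grhl2_cKO library than in each control.

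Several members are also made by cells other than epithelium, so markers of those cells were read beside them. None of the 12 marker lists had a marker at 0 in each library. Mesothelial markers summed to 78.5, 39.7 and 45.8 CPM in controls and to 60.7, 20.9 and 19.5 CPM in Grhl2_cKO, and 0 of 4 were called. Of these, 2 had fitted differences above 0 and 2 below, among them Msln, at 33.5% of control with no overlap between genotypes. Blood cell markers summed to 22.1 to 48.1 CPM in controls and 21.6 to 47.2 CPM in Grhl2_cKO, and 0 of the 6 tested were called. The 10 fibroblast and mesenchyme markers summed to 1439, 1211 and 909 CPM in control replicates 1, 3 and 7 and to 1812, 875 and 1028 CPM in Grhl2_cKO replicates 1, 5 and 10, and 0 of the 10 passed the threshold. Itga8, Itgb3, Lama2, Lama4, Lamc3, Nid1 and Nid2, 7 of the 37 genes, followed that order of libraries within both genotypes, an order that the smooth muscle sum shared. These 7 were named after their values were seen, and the part of mesenchymal RNA in their levels was not tested. The endothelial sums were 193, 181 and 124 CPM in controls and 159, 177 and 173 CPM in Grhl2_cKO, and 2 of the 37 genes, Itga5 and Fras1, followed that order of libraries within both genotypes. The part of endothelial RNA in them was not tested, and how many of all genes follow either order was not counted. For Fras1 the order of control replicates 3 and 7 rests on 507.9 against 507.3 CPM. Heart muscle markers summed to 159 to 186 CPM in controls and 214 to 401 CPM in Grhl2_cKO, with the highest value in Grhl2_cKO replicate 1, and 1 of the 6 tested was higher, Myh7, which stood at 138 to 146 CPM in controls and 191 to 200.5 CPM in Grhl2_cKO. Nerve and Schwann cell markers also peaked there, at 16.9 CPM beside 8.82 to 9.52 CPM in the other 5 libraries. All 5 tested had fitted differences above 0, and 1 was called: Tubb3, a neuronal tubulin gene, stood at 0.373, 0.304 and 0.193 CPM in controls and at 3.66, 1.54 and 0.887 CPM in Grhl2_cKO (edgeR adjusted p = 0.0407). That call was lost in fits that lacked control 1 (edgeR adjusted p = 0.0559), control 3 (0.145), control 7 (0.134), Grhl2_cKO 1 (0.0578) or Grhl2_cKO 5 (0.0717). It was also lost with limma-voom and with the robust edgeR fit, and Tubb3 was called in 8 of 15 alternatives. Without Grhl2_cKO replicate 1, Lama1 was the 1 member called.

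Among epithelial types, ciliated cell markers summed to 200 to 223 CPM in controls and 126 to 155 CPM in Grhl2_cKO (5 of 8 lower, 0 higher), and secretory cell markers to 538 to 661 and 238 to 398 CPM (3 of 7 lower, 0 higher). Alveolar type 1 markers summed to 1629 to 2031 CPM in controls and 1856 to 2078 CPM in Grhl2_cKO (1 of 9 higher). Basal cells build hemidesmosomes, and 0 of the 3 basal cell markers tested were called. Krt15, which made up most of their sum, stood at 20.4 to 32.3 CPM in controls and 8.28 to 20.8 CPM in Grhl2_cKO (log2 fold change -0.83), while Trp63 and Ngfr, at 0.365 to 2.88 CPM, had log2 fold changes of 0.58 and 0.84. Krt5, Krt14 and the hemidesmosome collagen gene Col17a1 were too low to be tested (Col17a1 at 0.580 to 1.42 CPM in controls and 0.321 to 0.541 CPM in Grhl2_cKO). The part of the ciliated and secretory shifts in the values of Itgb4, Plec, Fermt1 and Tspan1 was not tested. With sex as a term in the edgeR fit, 0 of the 37 genes differed between males and females at an adjusted p under 0.05, and 8 of all genes tested did.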

How the data were processed

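RNA of sorted EpCAM-positive cells was sequenced on an Illumina HiSeq after a stranded mRNA library kit, per the labels' protocols. The authors deposited raw counts per Entrez gene for 27179 genes, with a gene length column of the total counted length. Per the submitters' processing notes, bcl2fastq 2.17.1.14, featureCounts, edgeR 3.16.5, limma 3.30.12 and the mm10 build were used. The aligner and strand setting were not given in the sources used here, and several members share exonic bases with another gene (at most 8.45%). Symbols and coordinates came from a RefSeq table.

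All 6 libraries were fitted with edgeR 4.0.16 in R 4.3.3 (TMM, filterByExpr with minimum count 10 and minimum total 15, glmQLFit in its newer form, glmQLFTest, no covariate) over 14842 genes, with Benjamini-Hochberg adjustment and a threshold of 0.05. CPM uses TMM-scaled totals (factors 0.981 to 1.009). A count of 3 equals 0.177 to 0.224 CPM, which covers counting error only. Standard errors come from dividing the size of a log2 fold change by the root of its F statistic. The code was tested on simulated data. DESeq2 1.42.0, limma 3.58.1 (voom), other scalings and filters, a sex covariate and fits without 1 library were alternatives. Replicates differed by more than counting noise (chi-square per degree of freedom 7.72 to 12.9).

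Members and lists were chosen with earlier results of these data known. Values in all 6 libraries are given for members past the threshold, non-overlapping members with an absolute log2 fold change of 0.3 or more and the 12 highest per length, and every pathway gene past the threshold is named. Itga6, Itgb4, Itgb5, Itgb6, Lama2, Lama4, Fras1, Frem1, Plec and Dst were shown beyond that rule after their values were seen. So were Fermt2, Fn1, Tgfb3, Ltbp1, Fbln1, Col4a1, Col4a2, Col4a4, Col4a5, Col4a6, Col17a1 and single marker genes.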

Additional observations from a re-analysis of the deposited data

How the results depend on the processing

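No paired analysis was possible because the groups share only replicate number 1. Of the 37 members, against 0 called (0 higher, 0 lower), the alternatives called 1 with total-count scaling (Fras1, lower), 1 without a filter (Fras1, lower), 4 with DESeq2 (1 higher, 3 lower), 1 with limma-voom (lower) and 2 with the robust fit (2 lower). Leaving out 1 library gave 0 to 1 (0 to 1 higher, 0 to 1 lower): Frem1 without control replicate 7 and Lama1 without Grhl2_cKO replicate 1. The count over all genes, 537, ranged from 249 to 504 when 1 library was left out, and was 302 without control replicate 3, 335 without control replicate 7, 257 without Grhl2_cKO replicate 5 and 249 without Grhl2_cKO replicate 10; fewer samples entered these fits. Of 592 member values, 563 kept their sign and side of the threshold, 11 newly passed it and 18, in 10 genes, changed sign, with adjusted p from 0.658 to 0.999 (edgeR); the cause was not tested. With 1 library left out, their log2 fold changes ranged from -0.025 to 0.42 (Lama2), -0.24 to 0.13 (Lama4), -0.039 to 0.11 (Lama5), -0.078 to 0.16 (Lamb2), -0.086 to 0.065 (Lamb3), -0.43 to 0.47 (Lamc3), -0.13 to 0.10 (Nid1), -0.042 to 0.24 (Nid2), -0.050 to 0.063 (Npnt) and -0.094 to 0.011 (Dag1). With upper-quartile scaling Lamb3 was at 0.0037. The legacy form of the edgeR test was chosen after seeing the data and called 0 members. Depth limits Lamc3, Itgb8 and Itgb3, the least abundant members per length.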

Other observations

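Of 13 tested matrix ligands and latent TGF-beta partners of integrins, 5 had no overlap between genotypes, all 5 higher in Grhl2_cKO. These were Tnc, Tgfb3, Fn1, Ltbp1 and Fbln1. Of all genes tested, 18.1% had no overlap in either direction, and 1212 of 14842 had none and were higher in Grhl2_cKO. This list too was chosen with earlier results of these data known. Tgfb3, a latent TGF-beta that integrins can activate, stood at 88.4, 91.0 and 88.7 CPM in controls and at 115, 97.5 and 115 CPM in Grhl2_cKO (log2 fold change 0.29 ± 0.07, edgeR adjusted p = 0.0591). Fn1, the fibronectin gene, stood at 607, 566 and 526 CPM in controls and at 637, 615 and 704 CPM in Grhl2_cKO (0.20 ± 0.08, edgeR adjusted p = 0.256).

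Of the 11 basement membrane collagen and crosslinker genes tested, 4 had no overlap, beside 18.1% of all genes. These were Loxl2, Col4a3, Col4a4 and Col4a6. The other collagen IV chains, Col4a1, Col4a2 and Col4a5, had log2 fold changes of 0.11, 0.13 and 0.11 with overlapping groups. Col4a4 stood at 156, 119 and 136 CPM in controls and at 162, 182 and 176 CPM in Grhl2_cKO (log2 fold change 0.34 ± 0.09, edgeR adjusted p = 0.0818). Col4a6 stood at 187, 176 and 187 CPM in controls and at 207, 213 and 231 CPM in Grhl2_cKO (0.24 ± 0.06, edgeR adjusted p = 0.0611). Col4a3 and Col4a4 are head-to-head neighbours on chromosome 1.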
